A study of Homo sapiens with 6 samples.

Results

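Small nucleolar RNA (snoRNA) host genes are long noncoding RNA (lncRNA) genes whose introns carry snoRNAs. The 10 described here, *GAS5*, *SNHG1*, *SNHG3*, *SNHG5*, *SNHG6*, *SNHG7*, *SNHG8*, *SNHG12*, *SNHG15* and *SNHG16*, were taken by symbol from the deposited table and were all found, as 10 of its 15917 genes. The table comes from total RNA-seq of MDA-MB-231, an established human line of mesenchymal, triple-negative breast cancer, in which *RBMS3*, encoding an RNA binding protein, was silenced. The series holds 6 libraries: 2 from cells with the control hairpin shCTRL, 2 with the hairpin shRBMS3-B3 and 2 with shRBMS3-C3, so 4 from knockdown cells. The hairpins were brought in by lentivirus on a plasmid with a puromycin marker, and all cells were grown in DMEM with serum and antibiotics. The labels give the control cells the genotype WT and the knockdown cells KD1 and KD2. The value used is the authors' mean normalized count, a single number per gene over libraries. It has no error and no n, the depth of the libraries is unknown, and which of the 6 libraries entered it is not given in the sources used here. The study describes its comparison as 2 knockdown against 2 control replicates, so the mean may cover 4 libraries. No difference between knockdown and control cells was computed, because values of single libraries were not analysed here.

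Most human snoRNAs are released from introns as the host transcript is spliced and its introns are trimmed. Box C/D snoRNAs guide 2′-O-methylation, and box H/ACA snoRNAs guide pseudouridylation, mainly of ribosomal RNA. The spliced lncRNA that is left over is, for many hosts, short-lived, since ribosomes load on it and nonsense-mediated decay removes it. Many host genes also begin, like ribosomal protein genes, with a terminal oligopyrimidine (TOP) tract, a C followed by a run of pyrimidines at the start of transcription.

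Markers of the line were looked up among the listed genes. All 7 genes taken as present in MDA-MB-231 were in the table, from a mean normalized count of 69335 for the intermediate filament gene *VIM* to 271.5 for the silenced gene *RBMS3*, a mean that does not separate control from knockdown cells. Of 7 luminal or epithelial markers taken as low or absent, 4 were not listed (*ESR1*, *PGR*, *FOXA1* and *KRT5*), and the other 3 lay between 31.61 for *CDH1* and 171.4 for *GATA3*. Of *PTPRC*, *PECAM1* and *ALB*, which mark blood, endothelium and liver, only *PECAM1* was listed, at 69.00. The lowest mean in the table is 26.70, so a gene that is not listed may still be expressed at a low level.

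The start sequences are shown first, because the TOP tract is the feature that host genes are best known to share. RefSeq promoters of GRCh38.p14 matched 8 of the 10 genes by symbol, and *SNHG6* and *SNHG15* had no entry. Each line gives 15 bases before the annotated start and 25 bases from it, 5′ to 3′ on the strand of the gene. Capitals mark the longest run of a C followed by at least 4 pyrimidines (C or T), counted from a C that lies within 10 bases of the start.
*GAS5* (chr1:173869021-173869060, minus strand): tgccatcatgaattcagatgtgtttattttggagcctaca
*SNHG1* (chr11:62855861-62855900, minus strand): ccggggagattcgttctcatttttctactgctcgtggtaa
*SNHG3* (chr1:28505928-28505967, plus strand): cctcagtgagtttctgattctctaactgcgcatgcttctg
*SNHG5* (chr6:85678709-85678748, minus strand): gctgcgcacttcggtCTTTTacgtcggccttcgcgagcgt
*SNHG7* (chr9:136728160-136728199, minus strand): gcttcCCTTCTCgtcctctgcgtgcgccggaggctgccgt
*SNHG8* (chr4:118278747-118278786, plus strand): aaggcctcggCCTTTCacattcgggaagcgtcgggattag
*SNHG12* (chr1:28581849-28581888, minus strand): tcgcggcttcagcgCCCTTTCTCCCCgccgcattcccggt
*SNHG16* (chr17:76557749-76557788, plus strand): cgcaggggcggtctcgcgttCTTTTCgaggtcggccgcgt

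At the annotated start itself, *SNHG5* and *SNHG12* had a C with at least 4 pyrimidines after it, 2 of 8 genes, against 4.07% of all 35116 RefSeq promoters. With that C allowed to lie within 10 bases of the start, 5 of 8 genes had a tract, against 33.5% of all promoters. The longest was that of *SNHG12*, with 12 pyrimidines, and those of *SNHG8* and *SNHG16* had 6 each. The marked run of *SNHG7* is the part inside the window of a run of 11 pyrimidines, and a separate run of 5 begins 1 base before its start. Counting only runs that begin inside the window, an alternative chosen after seeing the data, also gave 5 of 8 genes, against 31.4% of promoters. The annotated start varies between catalogues. For *GAS5*, whose RefSeq window has no tract, the GENCODE release 44 representative transcript starts 1056 bases further downstream, with a tract of 6 pyrimidines. The 30 bases from that start, chr1:173867960-173867989 on the minus strand, are shown for comparison, with the tract in capitals.
*GAS5*, GENCODE start: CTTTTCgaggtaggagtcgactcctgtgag

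The hosted snoRNAs make up the other part of these loci. Box C/D snoRNAs carry a C box near the 5′ end and a D box near the 3′ end, and box H/ACA snoRNAs end shortly after an ACA. For 10 of the 15 hosted snoRNAs that the table lists, chosen to show both kinds, the 4 most abundant, the lowest, and the ones that lack a searched box, the GENCODE sequence is given with coordinates on GRCh38. Capitals mark the letters GATGA, the core of the C box, where they start within 20 bases of the 5′ end, the letters CTGA of the D box within the last 20 bases, and for H/ACA snoRNAs ACA within the last 10 bases, all on the snoRNA's own strand.
*SNORD22* in *SNHG1* (chr11:62852910-62853035, minus strand): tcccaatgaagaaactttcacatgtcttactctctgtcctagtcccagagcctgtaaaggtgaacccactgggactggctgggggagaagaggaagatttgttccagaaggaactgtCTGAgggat
*SNORD26* in *SNHG1* (chr11:62855292-62855366, minus strand): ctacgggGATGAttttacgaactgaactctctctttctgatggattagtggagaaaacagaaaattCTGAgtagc
*SNORD27* in *SNHG1* (chr11:62855012-62855083, minus strand): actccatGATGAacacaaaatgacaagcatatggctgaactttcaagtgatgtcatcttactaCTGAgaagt
*SNORD28* in *SNHG1* (chr11:62854621-62854695, minus strand): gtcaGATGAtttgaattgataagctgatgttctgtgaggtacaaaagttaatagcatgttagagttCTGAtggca
*SNORD99* in *SNHG12* (chr1:28578749-28578822, minus strand): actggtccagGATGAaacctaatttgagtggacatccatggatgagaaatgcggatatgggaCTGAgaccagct
*SNORD1C* in *SNHG16* (chr17:76558791-76558868, plus strand): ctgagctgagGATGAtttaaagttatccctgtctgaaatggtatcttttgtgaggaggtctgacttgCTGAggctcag
*SNORA24* in *SNHG8* (chr4:118279190-118279320, plus strand): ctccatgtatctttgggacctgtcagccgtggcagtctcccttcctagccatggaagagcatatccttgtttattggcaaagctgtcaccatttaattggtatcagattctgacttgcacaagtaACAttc
*SNORA44* in *SNHG12* (chr1:28580381-28580512, minus strand): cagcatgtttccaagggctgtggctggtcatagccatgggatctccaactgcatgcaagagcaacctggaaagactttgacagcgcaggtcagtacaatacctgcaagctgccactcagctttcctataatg
*SNORA73A* in *SNHG3* (chr1:28507366-28507571, plus strand): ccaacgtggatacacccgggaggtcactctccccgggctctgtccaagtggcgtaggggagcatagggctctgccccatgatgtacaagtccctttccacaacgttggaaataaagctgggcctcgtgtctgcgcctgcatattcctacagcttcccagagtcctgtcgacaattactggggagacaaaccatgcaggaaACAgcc
*SNORA73B* in *SNHG3* (chr1:28508559-28508762, plus strand): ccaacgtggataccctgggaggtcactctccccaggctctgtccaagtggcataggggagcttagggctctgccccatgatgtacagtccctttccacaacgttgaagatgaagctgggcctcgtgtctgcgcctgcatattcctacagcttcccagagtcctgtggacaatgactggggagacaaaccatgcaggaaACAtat

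Among the 7 listed box C/D snoRNAs inside introns of the host genes, 6 had GATGA near the 5′ end, against 71.6% of all 313 SNORD genes of the annotation, and all 7 had CTGA near the 3′ end, against 90.1%. *SNORD22* was the C/D snoRNA without GATGA in that window. Of the 8 listed H/ACA snoRNAs, 7 had the terminal ACA, against 82.2% of all 214 SNORA genes, and *SNORA44* did not.

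The level of the hosts was high for lncRNAs. *GAS5*, named for its rise on growth arrest, had the highest mean normalized count of the 10, 2840, at percentile 91.8 of all listed genes (the share of genes with a lower mean). *SNHG16*, the host of *SNORD1A*, *SNORD1B* and *SNORD1C*, followed at 2415. *SNHG5*, the host of *SNORD50A* and *SNORD50B*, was at 1547. The ratio of *GAS5* to *SNHG16* was 1.18 and that of *SNHG16* to *SNHG5* was 1.56.

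*SNHG1*, which carries a series of C/D snoRNAs in successive introns, was at 1242 and *SNHG3*, the host of the *SNORA73* pair, at 1071. *SNHG6* had a mean of 963.5, *SNHG7* of 913.3 and *SNHG8* of 870.9. *SNHG5* stood 1.25 times above *SNHG1*. From *SNHG1* down to *SNHG12* each gene stood between 1.05 and 1.17 times above the next, and without a spread over libraries their order cannot be set. *SNHG12* was at 745.9, and *SNHG15* was the lowest of the 10 at 499.4, percentile 57.6, with *SNHG12* 1.49 times above it. None of these ratios has an error.

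All 10 host genes lay above the median of all listed genes, 363.8, and far above that of the 1344 listed lncRNA genes, 57.80. The median of the 10 was 1017, which is percentile 74.6 of all listed genes. Among lncRNA genes, *GAS5* ranked 11 and *SNHG16* ranked 12, 9 of the 10 were among the 50 highest, and *SNHG15* ranked 71. The 10 genes are 0.744% of the listed lncRNA genes and held 2.47% of their summed level. The highest lncRNA gene was at 218551. The plot of lncRNA genes by rank shows this place.

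**Figure D1:**
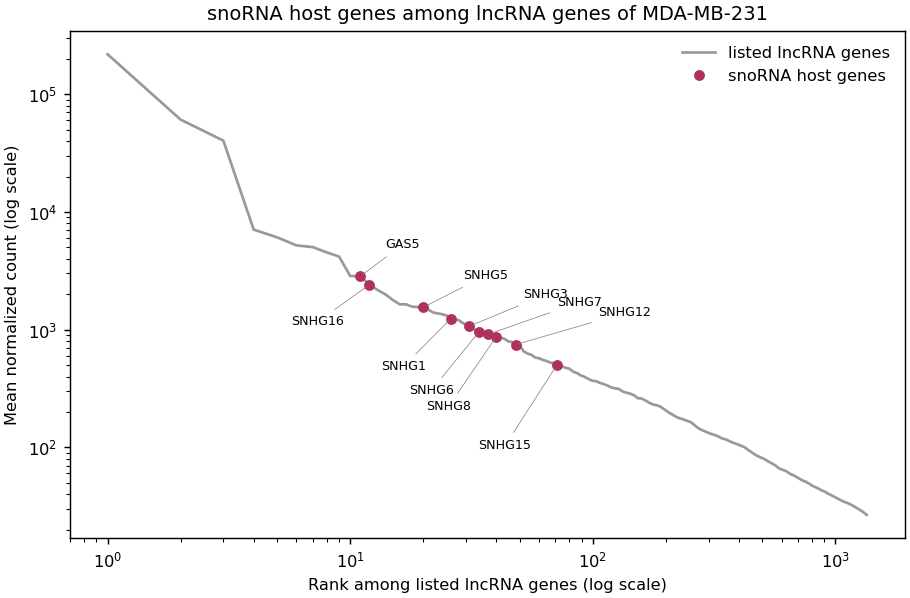
Mean normalized count (authors' mean over libraries, log scale) of the listed lncRNA genes against their rank (log scale). The grey line is all 1344 listed lncRNA genes, and the 10 points are the snoRNA host genes, which run from rank 11 (*GAS5*) to rank 71 (*SNHG15*).

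A longer transcript collects more reads, so levels of different genes were compared per kilobase (kb). Divided by the total length of all annotated exons of the gene, *GAS5* was highest at 576 counts per kb and *SNHG5* lowest at 123, a range of 4.69-fold. *SNHG16* was at 418, *SNHG6* at 381 and *SNHG1* at 312, and *SNHG8*, *SNHG15* and *SNHG12* were at 132, 127 and 175. *SNHG3* was at 262 and *SNHG7* at 187. For *SNHG1*, *SNHG8* and *SNHG15* the annotated exons cover the whole gene span (3976, 6614 and 3943 bases), introns of the representative transcript included. They cover 4932 of 10324 bases for *GAS5*, 12604 of 28442 for *SNHG5* and 5776 of 113259 for *SNHG16*. The order and the range on this scale therefore compare genes divided by their full span with genes divided by part of it. The median of the 10 was 224 counts per kb, against 20.6 for listed lncRNA genes and 88.7 for all listed genes.

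The length that is right for a host gene is uncertain, because its catalogue of transcripts is large. GENCODE lists 91 transcripts for *GAS5*, 89 for *SNHG5* and 80 for *SNHG1*, but 3 for *SNHG3*. With the length of a single representative transcript in place of all exons, *SNHG16* came first at 4850 counts per kb and *GAS5* was at 3699. *SNHG8* became the lowest at 141, and the range widened to 34.3-fold. The representative transcript of *SNHG16* has 498 bases and its annotated exons cover 5776, so its value rose by the largest factor. In place *SNHG5* moved most, from the lowest at 123 to 1176, next after *GAS5*. *GAS5* and *SNHG16* were the highest 2 genes on all 3 scales, which the plot of 3 scales shows.

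**Figure D2:**
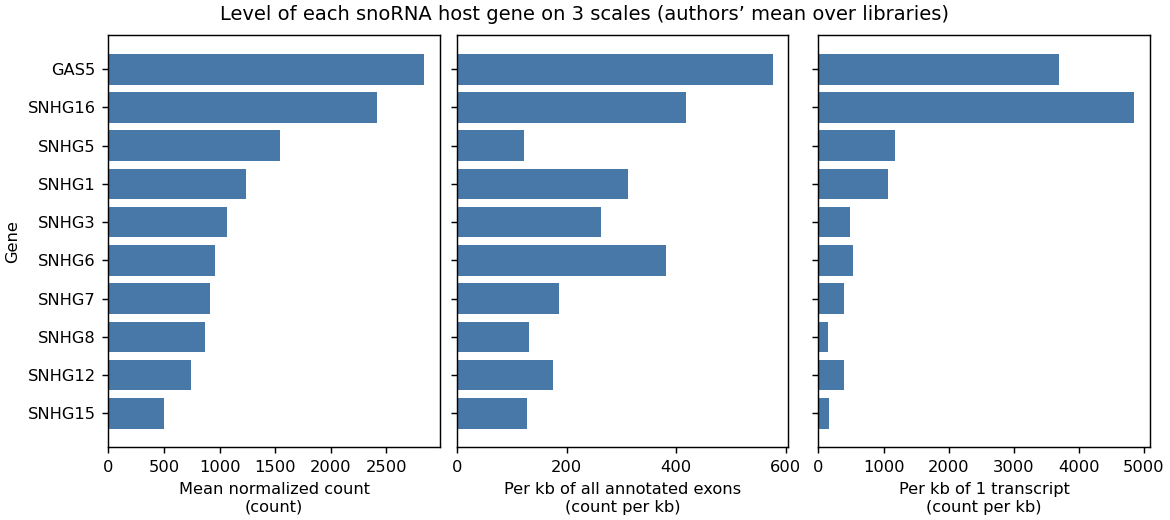
Level of the 10 host genes as mean normalized count, as counts per kb of all annotated exons, and as counts per kb of 1 representative transcript. Bars are the authors' mean over libraries and have no error bar. *GAS5* and *SNHG16* are the highest 2 genes in each panel, and *SNHG5* falls to the lowest place when all exons are counted.

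Leaving snoRNA genes aside, exons of other genes overlap 8 of the 10 hosts in GENCODE, and *SNHG1* and *SNHG15* have no such overlap. On the same strand, *SNHG3* shares 242 exon bases with *RCC1*, the gene of a chromatin-bound exchange factor for Ran, which was listed at 2158. *SNHG5* shares 943 exon bases with a gene listed as *RP11-321N4.5*, at 93.66. Reads from these stretches could have been given to either gene. On the opposite strand, *MCMDC2* covers 58.9% of the exon bases of *SNHG6*, *PRSS12* 37.6% of those of *SNHG8*, *DIPK1B* 30.3% of those of *SNHG7* and an unnamed gene 28.5% of those of *SNHG16*. *TRNAU1AP* covers 0.188% of the exon bases of *SNHG12*. The library kit keeps strand, but whether the authors' counting used it is not given in the sources used here, and the part of such reads in the levels was not tested.

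For comparison, 17 of a chosen list of 22 other lncRNA hosts were in the table. Their median mean normalized count was 139.0 and depends on the genes picked. They ran from 34.75 for *SNHG19* to 4174 for *SNHG29* (listed as *LRRC75A-AS1*), the only gene of that list above *GAS5*. A chosen list of 35 protein-coding hosts, many of them ribosomal protein or translation factor genes, had a higher median. It is not a full catalogue of such hosts, and its median depends on the genes picked. All 35 were listed, from 1327 for *PPAN*, a ribosome biogenesis gene, to 44458 for *HSPA8*, a cytosolic chaperone, with a median of 9418. Per kb of all exons, the medians were 56.6 for other lncRNA hosts, 224 for the 10 genes and 2418 for protein-coding hosts. These lists describe levels and were not tested against each other, since genes are not replicates.

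The proteins that bind and mature snoRNAs were all listed. The 4 core proteins of box C/D particles were at 4849 (*NOP56*, itself a host), 2805 (*FBL*, the methyltransferase), 1933 (*SNU13*) and 772.5 (*NOP58*). The 4 of box H/ACA particles were at 3304 (*DKC1*, the pseudouridine synthase and also a host), 1224 (*NHP2*), 429.5 (*NOP10*) and 256.8 (*GAR1*). The 11 assembly factors had a median of 790.4, from 235.5 for *NUFIP1* to 8152 for *NOLC1*. The 14 factors of nonsense-mediated decay, the pathway that many host transcripts enter, had a median of 1913, from 513.5 for *MAGOH* to 4834 for *SMG5*. The 9 regulators of TOP mRNAs had a median of 2090, from 297.2 for *TIA1* to 11345 for *LARP1*, whose protein binds the TOP tract. The plot of gene lists sets these ranges side by side.

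**Figure D3:**
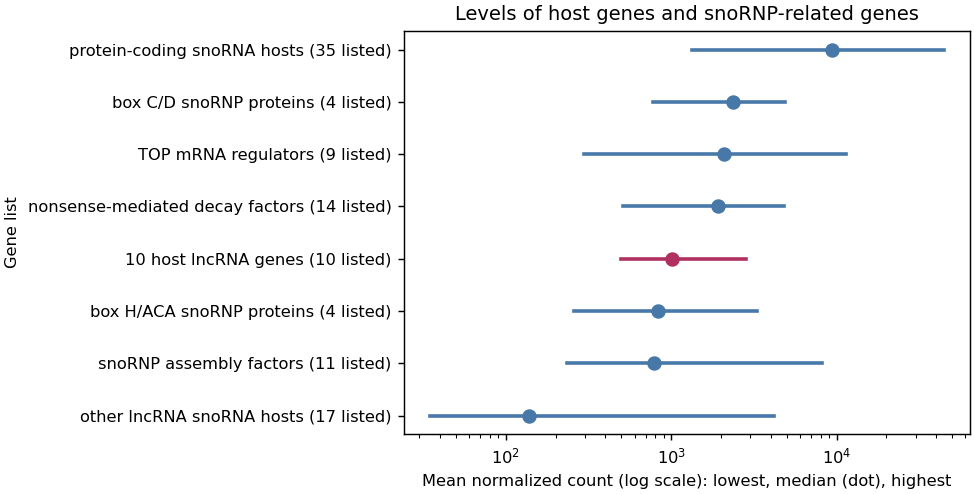
Mean normalized count (log scale) of the 10 host lncRNA genes and of 7 related gene lists. Lines run from the lowest to the highest listed gene of a list and dots are medians. The 10 host genes, with a median of 1017, lie between the decay factors (1913) and the H/ACA proteins (826.6). By median, other lncRNA hosts (139.0) lie below them and the 35 protein-coding hosts chosen for the list (9418) above, and both ranges overlap that of the 10 genes.

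The label of these genes as snoRNA hosts was checked against the annotation. In GENCODE, 8 of the 10 have at least 1 snoRNA wholly inside an intron of the representative transcript, on the same strand. These are 24 identifiers at 21 places, since 3 places carry overlapping entries. *SNHG1* has 7 in 10 introns, *SNHG12* has 4 places in 5 introns, *SNHG16* has 3, *SNHG3* and *SNHG7* have 2 places each, and *SNHG5*, *SNHG6* and *SNHG8* have 1 each. In *SNHG15* the snoRNA *SNORA9* lies in an exon of the long representative transcript. *GAS5* has none in GENCODE and 11 snoRNA genes in RefSeq, from *SNORD74* to *SNORD81* with *SNORD44*, *SNORD47* and *SNORA103*, and none of these 11 is listed in the table by symbol. The map of exons and snoRNAs shows the loci.

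**Figure D4:**
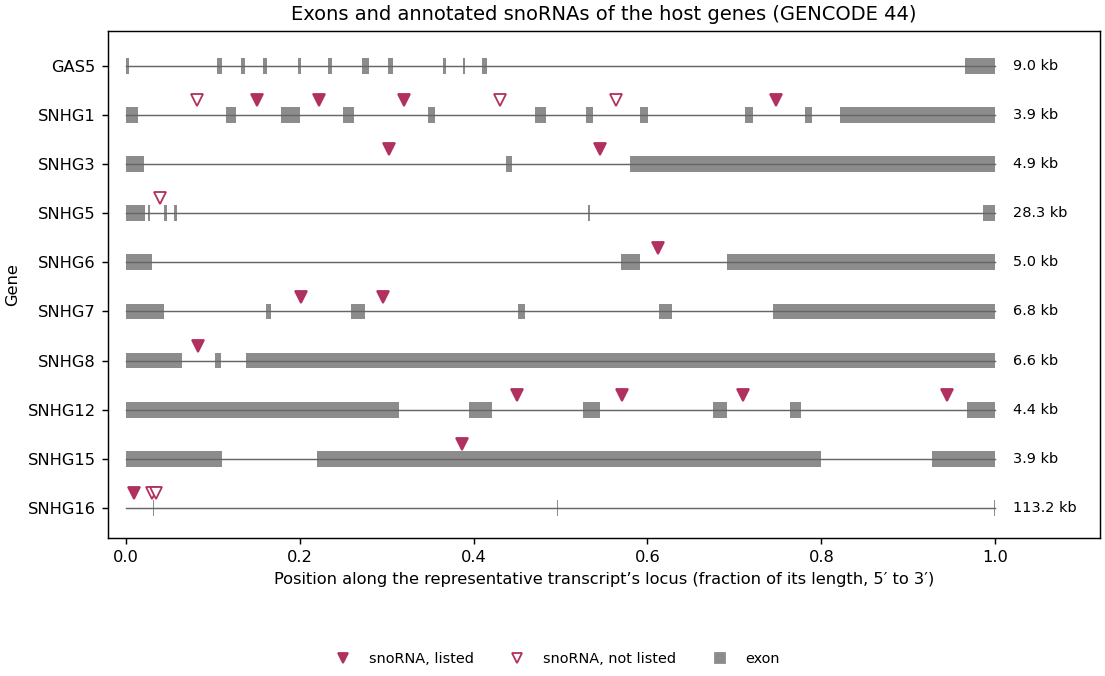
Exons (grey boxes) of the representative GENCODE transcript of each host gene, drawn 5′ to 3′ as a fraction of the length printed at the right, with annotated snoRNAs of the same strand as triangles. Filled triangles are snoRNAs with a mean in the table, open ones are not listed. *SNHG1* and *SNHG12* carry a snoRNA in most of their introns, and *GAS5* has no GENCODE snoRNA.

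The 7 box C/D snoRNAs that GENCODE has in *SNHG1* each lay in an intron of their own, and RefSeq has 9 snoRNA genes inside this host. Its 4 listed members, *SNORD22*, *SNORD28*, *SNORD27* and *SNORD26*, end 70, 69, 73 and 75 bases before the next exon, in introns of 194 to 336 bases, and the other 3 end 72 to 97 bases before it. On the 5′ side, *SNORD22*, *SNORD27* and *SNORD26* had 39, 49 and 57 bases of intron, fewer than on the 3′ side, and *SNORD28* had 192. *SNORD99* in *SNHG12* ends 68 bases before its exon in an intron of 852 bases. Over all 13 C/D places the distance had a median of 95.0 bases, and 52212 for *SNORD1A*, whose intron in this long representative transcript is itself 52519 bases, was the largest. The 8 H/ACA places ran from 67 bases (*SNORA73B*) to 994 (*SNORA17B*), with a median of 302.

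Of the 24 hosted snoRNA identifiers, 15 were listed in the table, 62.5%, against 14.6% of all 991 snoRNA and scaRNA genes of the annotation, many of which are copies outside any host. Of the 9 GENCODE identifiers that were not listed, 3 lie at a place whose other identifier is listed. The 6 places without a listed snoRNA measured 69 to 125 bases with a median of 71.0, and the 15 listed snoRNAs had a median of 130. For all snoRNA genes the medians were 115 bases for those not listed and 133 for those listed. How much of an RNA this short is kept depends on the size selection of the library, and its part in these levels was not tested. Introns of the representative transcript can also be exons of other transcripts. Of the 16 listed snoRNAs in the host genes, *SNORA9* included, 14 share bases with some annotated exon of the host, so reads there could have been given to snoRNA or host.

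*SNORA73B* and *SNORA73A*, the H/ACA snoRNAs of *SNHG3*, which act in cleavage of the ribosomal RNA precursor, were by far the most abundant, with means of 13608 and 6537. They ranked 2 and 4 among the 145 listed snoRNA and scaRNA genes and lay 12.7 and 6.10 times above *SNHG3*. These ratios leave out *RCC1*, at 2158, which shares exon bases with *SNHG3* and is itself in the list of protein-coding hosts. The sequences of *SNORA73A* and *SNORA73B* are identical at 192 of 206 aligned positions, 93.2%. How reads common to both were divided is not given in the sources used here. *SNORA24* of *SNHG8* had a mean of 1616, or 1.86 times its host, and *SNORD22* of *SNHG1* had 1441, or 1.16 times its host. These 4 were the listed snoRNAs with a mean above that of the host gene.

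The other 11 were below their hosts in mean normalized count, a scale on which the longer host collects more reads. In *SNHG1*, *SNORD26* was at 322.3, *SNORD27* at 269.3 and *SNORD28* at 91.21, so that snoRNAs of a single host transcript, with *SNORD22*, covered a range from 91.21 to 1441. In *SNHG12*, *SNORA44* was at 336.2, *SNORA61* at 280.1, *SNORA16A* at 133.8 and *SNORD99* at 107.5. *SNORD87* of *SNHG6* was at 234.1, *SNORA17A* and *SNORA17B* of *SNHG7* at 123.5 and 77.73, and *SNORD1C* of *SNHG16* at 62.76. The second highest host by level, *SNHG16*, thus had the lowest listed snoRNA. *SNORA9* of *SNHG15*, which lies in an exon, was at 118.9.

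On the per kb scale the short snoRNAs stood higher. Each is shorter than its host on either length, so dividing by length raises every one against its host. Ratios of counts favour the longer host, and ratios per kb depend on which host length is right. Neither settles which of the 2 RNAs is more abundant. With the host divided by all its exons, all 15 were above their hosts, from 1.92 times for *SNORD1C* to 255 times for *SNORA73B*. With the host divided by its representative transcript, *SNORD1C* fell to 0.166 times its host and the other 14 stayed above, from 1.14 times for *SNORD28*. The 15 hosted snoRNAs had a median mean normalized count of 269.3 and the other 130 listed snoRNA and scaRNA genes of 174.2. The plot of snoRNAs and hosts shows the values.

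**Figure D5:**
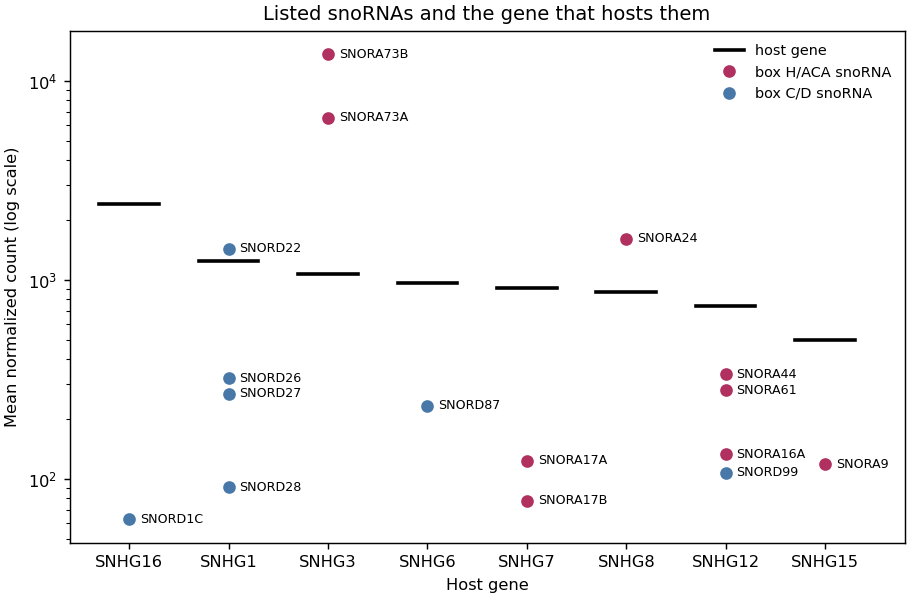
Mean normalized count (log scale) of each listed snoRNA (points, red for box H/ACA, blue for box C/D) above the name of its host gene, with the host's own mean as a black bar. Hosts are ordered by their level, and points above the bar are *SNORD22*, *SNORA73A*, *SNORA73B* and *SNORA24*. *SNORA9* lies in an exon of *SNHG15*, and *GAS5* and *SNHG5* had no listed snoRNA.

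RBMS3 was studied for its binding to an AUA element, which the study reported in 3′ untranslated regions. Here the whole spliced transcripts were searched, with the coding part included for coding genes, so the shares are not the study's measure. The motif has 7 letters: any letter but C, then A or T, then ATA, then A or T, then A. It was read on the transcript strand with overlapping matches counted. The representative transcripts of 9 of the 10 genes had at least 1 match, against 78.6% of all 15829 listed genes with a transcript and 76.8% of listed lncRNA genes. *GAS5*, at 768 bases the second shortest, had none, and 50.8% of listed genes within 20% of its length had a match. Its longest annotated transcript, of 3145 bases, had 3, so the absence holds for the representative transcript only. Among representative transcripts the longest, *SNHG8* with 6166 bases, had 16 matches. *SNHG6* had 10 in 1821 bases, the highest density at 5.49 per kb.

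*SNHG12* had 4 matches, *SNHG15* had 3, *SNHG1*, *SNHG3* and *SNHG5* had 2 each, and *SNHG7* and *SNHG16* had 1 each. *SNHG7* had the lowest share of A and T, 34.1%, and the lowest density among those with a match, 0.424 per kb, where 82.1% of listed genes of like length had at least 1. For *SNHG16* that share was 33.8%. The median density was 1.62 per kb for the 10 genes, 1.19 for listed lncRNA genes and 1.07 for all listed genes. A match to these letters is a description and does not show binding.

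Several matches lie at the very end of the transcript, where the letters can overlap the polyadenylation signal AATAAA, which 9 of the 10 transcripts contain, against 77.3% of all listed genes. Sites are shown for such an end and, in contrast, for sites without AATAAA, with the motif in capitals.
*SNHG1*, exon 11 of 11, 25 bases before the end (chr11:62851993-62852019, minus strand): ttgatgaaaaTAATAAAatgattgatt
*SNHG12*, exon 6 of 6, 16 bases before the end (chr1:28578544-28578570, minus strand): aataaaagaaGAATAAAaagactaata
*SNHG15*, exon 3 of 3, 4 bases before the end (chr7:44983038-44983058, minus strand): aagggatattTAATAAAtatg
*SNHG3*, exon 3 of 3, 2000 bases before the end (chr1:28508876-28508902, plus strand): ttagggtcctTTATATAgaagggagag
*SNHG5*, exon 6 of 6, 68 bases before the end (chr6:85650549-85650575, minus strand): gtagttactgGTATATActctgtggct
*SNHG8*, exon 3 of 3, 189 bases before the end (chr4:118285111-118285137, plus strand): atgatttggcTTATATAgccacctact

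On GRCh38, with GENCODE coordinates, chromosome 1 carries 3 of the genes: *GAS5* (ENSG00000234741), 173858559 to 173868882, minus strand, *SNHG12* (ENSG00000197989), 28578538 to 28583132, minus strand, and close to it *SNHG3* (ENSG00000242125), 28505980 to 28510892, plus strand. *SNHG1* (ENSG00000255717) lies on chromosome 11 from 62851978 to 62855953, minus strand, and *SNHG5* (ENSG00000203875) on chromosome 6 from 85650491 to 85678932, minus strand. *SNHG7* (ENSG00000233016) lies on chromosome 9 from 136721366 to 136728184, minus strand, and *SNHG8* (ENSG00000269893) on chromosome 4 from 118278703 to 118285316, plus strand. *SNHG15* (ENSG00000232956) lies on chromosome 7 from 44983019 to 44986961, minus strand, and *SNHG16* (ENSG00000163597) on chromosome 17 from 76557727 to 76670985, plus strand. All are annotated as lncRNA genes.

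*SNHG6* (ENSG00000245910) lies on chromosome 8 from 66920561 to 66926398, minus strand, and is a lncRNA gene as well.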

How the data were processed

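Total RNA of MDA-MB-231 cells was made into stranded libraries after depletion of ribosomal cDNA. Each gene has 1 deposited signal value, its normalized count averaged by the authors over libraries after division by a size factor. Salmon and DESeq2 and the genome build hg38 are named in the authors' processing notes, without versions, and the annotation is not given in the sources used here. The remaining columns hold the authors' own comparison of knockdown and control (log2 fold change, its standard error, test statistic, p-value and adjusted p-value) and were not used. Values per library were not analysed here, so depth is unknown, no value has an error, and no test was run.

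Genes were joined by identifier to GENCODE release 44 (GRCh38), which holds 15829 of the 15917 and lacks 88. To represent a gene, its transcript tagged MANE Select was taken, failing that the Ensembl canonical, failing that the longest. Levels were divided by the union of exons, or by the representative transcript as an alternative. Symbols of other lists were matched as in the table, otherwise through GENCODE. Start sequences came from RefSeq (GRCh38.p14), snoRNA and transcript sequences from GENCODE. All 10 genes and all listed hosted snoRNAs are named with their mean normalized count, and of other lists the highest and lowest and, for the snoRNP proteins, each. Members and lists were chosen with earlier results of these data known. SNORA73A and SNORA73B, and SNORA17A and SNORA17B, were aligned globally. The functions were tested on simulated data. Python 3.11.15, pandas 2.3.3, Biopython 1.88 and matplotlib 3.10.9 were used.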

Additional observations from a re-analysis of the deposited data

How the results depend on the processing

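Of 18 alternatives over 5 results, 10 left a fold range or a count within 1.5 times its value, or a percentile within 10 points, and 4 of the 18 were chosen after seeing the data. The range of the 10 levels per kb was 4.69-fold with all exons and 34.3-fold with the representative transcript, where the length of *SNHG16* falls from 5776 to 498 bases and that of *SNHG8* from 6614 to 6166. The median of the 10 was at percentile 73.6 of all listed genes per kb, at 55.1 among genes above the median level, and at 95.8 among lncRNA genes, where it was 97.6 without a length and 95.3 with the representative transcript (both added). A tract at the annotated start was found in 2 of 8 genes, against 4.07% of promoters. At the GENCODE start it was also found in 2, though not the same 2, against 4.57% of listed genes. It was found in 1 with at least 7 pyrimidines (1.45% of promoters) and in 5 when its C could lie within 10 bases (33.5% of promoters). When the whole run had to begin there it was found in 5 (added), against 31.4% of promoters. Counts of listed snoRNAs (15 or 16) and of genes with the AUA motif (7 to 10) moved less. The 15 are of 24 GENCODE identifiers inside introns, and the 16 are of 25 by any overlap or of 36 RefSeq genes. At least 2 AUA matches were found in 7 of the 10 genes, against 61.9% of all listed genes. No paired analysis was possible because the value used is a mean over libraries and carries no replicate, and for the same reason no library was left out and no other normalization was tried.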

Other observations

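The starts of *GAS5* and *SNHG16* share letters beyond the pyrimidine tract, a likeness noticed after the sequences had been read. The 11 letters CTTTTCGAGGT stand at the GENCODE start of *GAS5* and 5 bases after the RefSeq start of *SNHG16*, and of 35116 RefSeq promoters, searched on the gene's strand, 3 hold them (0.00854%), *SNHG16* among these. Because the letters were taken from these 2 sequences, the share does not measure how unusual the likeness is. *GAS5* and *SNHG16* were also the 2 host genes with the highest levels, and a link to level was not tested. No test was made of this likeness.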
